A study of Rattus norvegicus with 12 samples.

Results

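The renin-angiotensin and endothelin genes described here are 9 genes chosen by symbol, namely Agt, Ace, Agtr1a, Agtr2, Edn1, Edn3, Ednra, Ednrb and Ece1. Of these, 8 had a row among the 16898 genes of the deposited expression table, and Edn3 had none and was not analysed here. RNA was sequenced from heart tissue of Sprague Dawley rats at 2 postnatal ages, with 3 libraries of input RNA each. Input RNA is RNA that did not go through the antibody pull-down for N6-methyladenosine, a methyl mark on adenosine, and it measures transcript levels. The older hearts are labelled postnatal day 7, although the column headers read 10D, so no exact age is claimed for them. The newborn hearts are labelled postnatal day 0. No treatment or altered genotype is given for either age, and the labels name neither the part of the heart nor whether replicates came from separate animals.

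The renin-angiotensin system makes the peptide angiotensin II from angiotensinogen, the product of Agt, by successive cleavages, the last of them by angiotensin-converting enzyme, the product of Ace. Angiotensin II acts through the type 1 receptor (Agtr1a), which constricts vessels and promotes growth of heart muscle, and through the type 2 receptor (Agtr2), which is known mainly from fetal tissues. Endothelins are vasoconstrictor peptides that are cut from larger precursors (Edn1, Edn3) by endothelin-converting enzyme (Ece1). They bind receptor A (Ednra) on smooth muscle and heart muscle cells and receptor B (Ednrb), which is best known from endothelial cells and neural crest.

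Levels are given as FPKM, reads scaled by the length of the gene and by the total of the library. Library totals, recovered from the FPKM values, ran from 13489816 to 16297533 reads. For a gene 1 kb long, a single read then stood for 0.0614 to 0.0741 FPKM, depending on the library. The hearts expressed heart muscle markers strongly at both ages, with summed levels of 25038 to 28544 FPKM for 8 genes in older hearts and 24788 to 26537 FPKM in day 0 hearts. Day 0 replicate 3 stood apart. Sftpc, Sftpb, Sftpa1 and Scgb1a1, which are secretory genes of lung epithelium, were listed at 0 in the other 5 libraries, and that library held 23.1, 9.44, 4.88 and 2.50 FPKM of them. The summed level of all 5 lung markers was 0.351 to 3.65 FPKM in the older hearts, against 1.35 to 43.7 FPKM in the day 0 hearts. The same library stood apart in genes of fast skeletal muscle. Tnni2, Tnnt3 and Myh1 held 69.4, 57.6 and 6.55 FPKM there. The highest values elsewhere were 1.11, 4.56 and 0.375 FPKM in the older libraries, and 2.39, 0.137 and 0.356 FPKM in the other day 0 libraries. The 6 members tested and both receptor ratios are therefore given with and without this library. Without it Ednra, Mtus1 and Rgs5 were the called genes of the pathway lists.

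Ednra was the member that passed the test between ages, and its mean in older hearts was 0.480 of that in day 0 hearts. Of the other members tested, none passed, and these were Ednrb, Ece1, Edn1, Ace and Agtr1a. Agt and Agtr2 lay below the level needed for testing. The test was limma on log2(FPKM + 1), run on the 13117 genes that averaged 1 FPKM or more across libraries and called at a Benjamini-Hochberg adjusted p under 0.05. It called 1 of the 6 tested members, 0 higher and 1 lower in older hearts, where 9.26% of all tested genes were called, 3.52% higher and 5.73% lower. A count of 1 does not set the members apart from that background. Limma-voom on recovered reads also called Ednra alone among the members, where it called 14.0% of all tested genes and 8.44% as lower. The median log2 fold change, older minus day 0, was -0.35 over the 6 members and -0.11 over all tested genes.

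**Figure D1:**
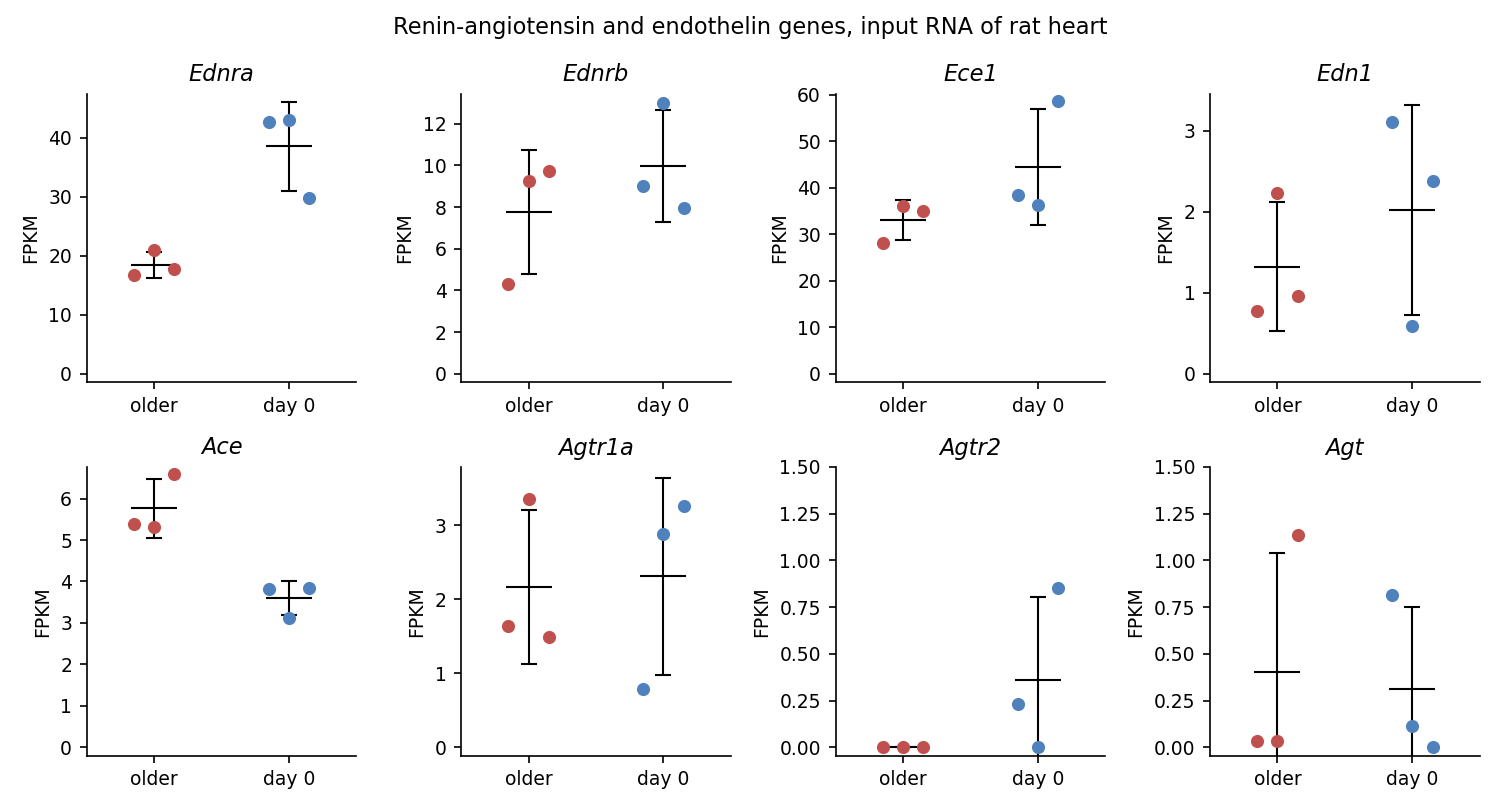
FPKM of the 8 measured members (vertical axes, linear) in each library, older hearts left and day 0 hearts right. Dots are libraries, ordered from replicate 1 to 3, horizontal bars are means, and error bars are the SD of 3 libraries, cut off at the axis where they reach below 0. Ednra, Ece1 and Ace do not overlap between ages, Ednra and, by a small gap, Ece1 being lower and Ace higher in older hearts. Agtr2 is at 0 in all 3 older libraries.

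The endothelin receptors had the highest levels among the receptor members at both ages. The bases ahead of the transcription start of both genes are shown because Ednra passed the test and Ednrb is its partner receptor. By symbol, 7 of the 9 members matched the RefSeq promoter table used. Each run holds the 250 bases before the start site in RefSeq on the rat build GRCr8, which is not the build of the expression table. Ednra lies on the plus strand at chr19:47137674-47137923, and Ednrb on the minus strand at chr15:87086766-87087015.
Ednra: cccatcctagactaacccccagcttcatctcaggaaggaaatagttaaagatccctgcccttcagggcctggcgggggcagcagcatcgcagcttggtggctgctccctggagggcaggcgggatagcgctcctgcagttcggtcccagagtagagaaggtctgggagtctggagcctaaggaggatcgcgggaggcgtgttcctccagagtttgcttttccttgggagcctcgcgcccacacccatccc
Ednrb: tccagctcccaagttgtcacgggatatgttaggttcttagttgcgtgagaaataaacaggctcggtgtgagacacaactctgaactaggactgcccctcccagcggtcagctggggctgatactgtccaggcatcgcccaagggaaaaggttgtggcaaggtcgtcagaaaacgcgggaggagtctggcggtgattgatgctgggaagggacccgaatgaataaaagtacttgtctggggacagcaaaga
G and C made up 61.2% of the Ednra run and 53.2% of the Ednrb run. The motifs searched on both strands were the TATA box with letters TATAAA, the GC box with letters GGGCGG, the GATA site with letters AGATAA and the MCAT element with letters CATTCC. Neither run held any of them, so no base is set in capitals. Over 33469 rat promoters of the same length the 4 motifs were found in 12.9%, 30.5%, 10.3% and 12.1%. No match says only that these letters are not in these windows.

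Ednra, endothelin receptor A, held 16.7, 20.9 and 17.8 FPKM in the older libraries, against 42.6, 43.0 and 29.8 FPKM in the day 0 libraries. Every older library lay below every day 0 library, and the lowest day 0 value belonged to replicate 3, the library with lung and skeletal muscle transcripts. These levels rest on 1220 to 1545 reads per older library and 2235 to 2861 reads per day 0 library. The means were 18.5 ± 2.16 FPKM in older hearts and 38.5 ± 7.49 FPKM in day 0 hearts (SD, n = 3 each; log2 fold change -1.01, SE 0.18, 95% interval -1.43 to -0.59, limma adjusted p = 0.0172). The fall was larger than the spread between libraries of one age. Without day 0 replicate 3 the log2 fold change was -1.18 (limma adjusted p = 0.0102), and relative to the median gene of each library it was -0.89 with all 6 libraries (limma adjusted p = 0.0262).

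The call did not hold when any other single library was left out. The limma adjusted p was then 0.0739, 0.0544 and 0.0720 without older replicates 1, 2 and 3, and 0.0676 and 0.0722 without day 0 replicates 1 and 2. The log2 fold change itself stayed between -1.18 and -0.92 over all 6 leave-outs. The authors' deposited table lists Ednra at a log2 fold change of -0.94, older over day 0.

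**Figure D2:**
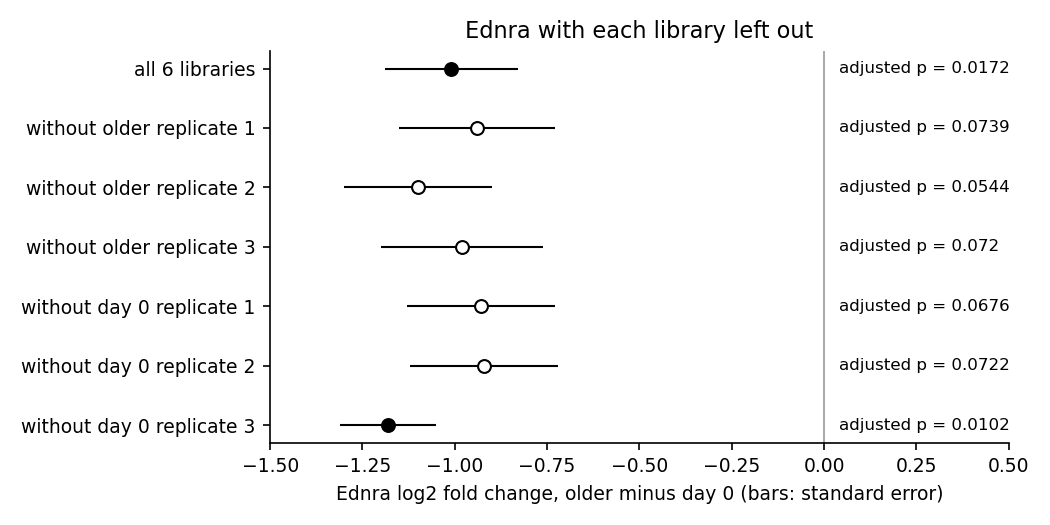
Log2 fold change of Ednra on the log2(FPKM + 1) scale, older minus day 0 (horizontal axis), with all 6 libraries and with each library left out in turn (rows). Points are fitted values, bars are standard errors, and filled points have a limma adjusted p under 0.05. All values lie between -1.18 and -0.92, and 2 of the 7 points are filled.

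In tissue RNA, fewer cells of a type and less RNA per cell cannot be told apart. Markers of cell types that carry receptor A moved in different directions. Over all tested genes 3.52% were called higher and 5.73% lower. Of 8 heart muscle markers 2 were called higher, Myh6 and Mb, and 1 lower, Actc1, with a list median log2 fold change of 0.02. With 1 library left out 1 to 2 of the 8 were called. Of 6 smooth muscle markers 3 fell and 0 rose, and their summed level was 238 to 280 FPKM in older hearts, against 715 to 765 FPKM in day 0 hearts. Those 3 were Cnn1, Acta2 and Myl9, which encode contractile proteins. Of the 6 smooth muscle markers 2 had a positive log2 fold change and were not called, among them the smooth muscle myosin gene Myh11 (0.27). Pericyte markers summed to 297 to 316 FPKM in older hearts and 156 to 205 FPKM in day 0 hearts, with 1 of 6 called higher. That gene, Rgs5, averaged 113 FPKM in older hearts and 32.8 FPKM in day 0 hearts. Of the 6 pericyte markers 2 had a negative log2 fold change. Fibroblast markers summed to 2007 to 2171 FPKM in older hearts and 823 to 1296 FPKM in day 0 hearts, with 5 of 8 called higher, or 3 to 6 with 1 library left out. The part of these cell types in the Ednra result was not tested.

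Ednrb, endothelin receptor B, held 4.33, 9.25 and 9.71 FPKM in the older libraries, against 8.99, 13.0 and 7.94 FPKM in the day 0 libraries. The ages overlapped, and older replicate 1 lay lowest of all 6 libraries. The means were 7.76 ± 2.98 FPKM in older hearts and 9.98 ± 2.68 FPKM in day 0 hearts (SD, n = 3 each; log2 fold change -0.37, 95% interval -1.12 to 0.39, limma adjusted p = 0.521). Without older replicate 1 the log2 fold change was -0.04, without day 0 replicate 2 it was -0.18, and without day 0 replicate 3 it was -0.50. Markers of endothelial cells, a known site of receptor B, summed to 394 to 426 FPKM in older hearts and 299 to 361 FPKM in day 0 hearts, and their part in the Ednrb values was not tested. Schwann and neural crest markers were low, with sums of 3.61 to 5.46 FPKM in older hearts and 3.48 to 7.80 FPKM in day 0 hearts.

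Receptor A exceeded receptor B in every library. The ratio of Ednra to Ednrb was 3.86, 2.26 and 1.83 in the older libraries, against 4.74, 3.31 and 3.76 in the day 0 libraries. Older replicates 2 and 3 had the lowest ratios, and older replicate 1 lay within the day 0 range. On the log2 scale the ratio averaged 1.33 ± 0.56 in older hearts and 1.96 ± 0.26 in day 0 hearts (SD, n = 3 each), a difference of -0.63 with p = 0.3 in a two-sided exact permutation test. That difference was -0.94 without older replicate 1, -0.40 without older replicate 3 and -0.65 without day 0 replicate 3. With 3 libraries against 3 that test cannot go below 0.1. The 2 receptors were therefore not shown to differ in how they changed with age. Their summed level was 21.1, 30.1 and 27.5 FPKM in older hearts, against 51.6, 56.0 and 37.8 FPKM in day 0 hearts, and these ranges did not overlap with day 0 replicate 3 included or left out.

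**Figure D3:**
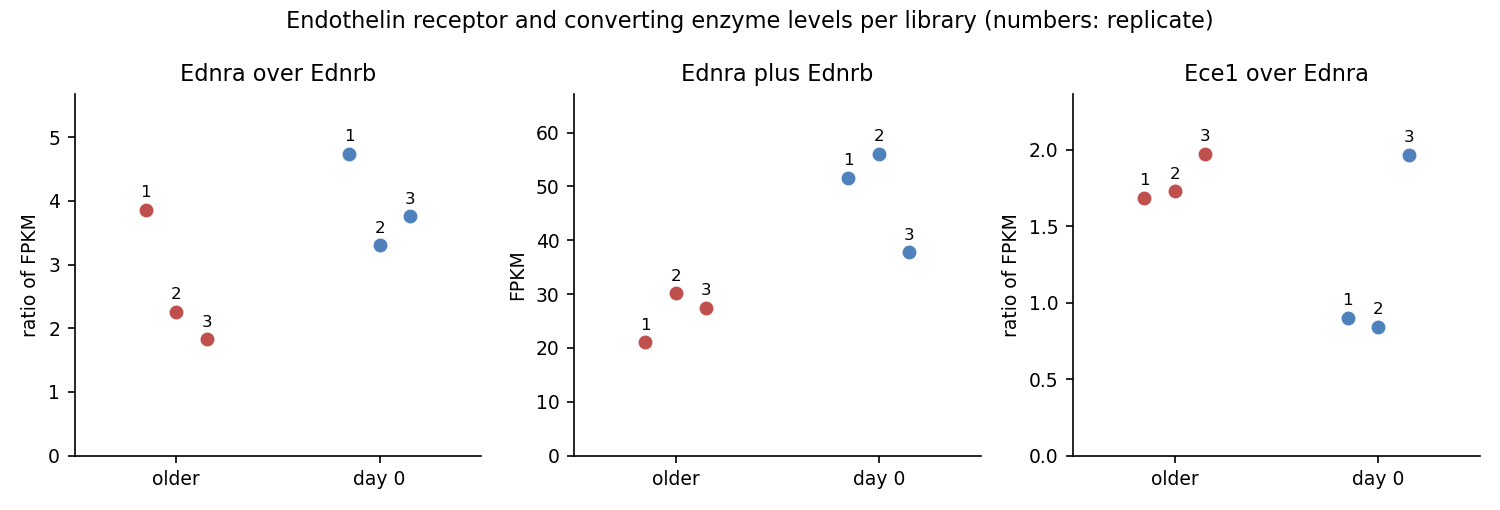
Ratio of Ednra to Ednrb (left), summed FPKM of both receptors (middle) and ratio of Ece1 to Ednra (right) in each library, older hearts left and day 0 hearts right in each panel, with linear axes from 0. Numbers beside the dots are replicates. The receptor sum does not overlap between ages, while in the right panel day 0 replicate 3 lies with the older libraries at 1.97.

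Ece1, the enzyme that releases active endothelin from its precursor, had the highest mean level of the members at both ages. In day 0 hearts it ranked first in replicate 3 alone, and Ednra ranked first in replicates 1 and 2. Ece1 held 28.2, 36.1 and 35.1 FPKM in the older libraries, against 38.5, 36.2 and 58.8 FPKM in the day 0 libraries. The ages were separated by the small gap between older replicate 2 and day 0 replicate 2, and the highest value came from day 0 replicate 3. The means were 33.1 ± 4.28 FPKM in older hearts and 44.5 ± 12.4 FPKM in day 0 hearts (SD, n = 3 each; log2 fold change -0.39, SE 0.20, limma adjusted p = 0.278). Without day 0 replicate 3, the library with lung and skeletal muscle transcripts, the log2 fold change was -0.18. The ratio of Ece1 to Ednra was 1.69, 1.73 and 1.97 in older hearts, against 0.903, 0.842 and 1.97 in day 0 hearts, so that Ednra exceeded Ece1 in day 0 replicates 1 and 2 alone.

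Edn1, the precursor of endothelin 1, was close to the limit of testing and varied widely within each age. It held 0.771, 2.23 and 0.957 FPKM in the older libraries, against 3.10, 0.587 and 2.38 FPKM in the day 0 libraries, from 17 to 50 reads and from 11 to 63 reads. The highest and lowest values were both from day 0 hearts, where they differed 5.29-fold. The log2 fold change was -0.32 with a 95% interval of -1.48 to 0.83 (limma adjusted p = 0.722). Adding 1 FPKM shrinks changes at levels this low, so the interval excludes a 2-fold change of FPKM in neither direction. Single libraries moved the log2 fold change, to -0.16 without older replicate 1, -0.59 without older replicate 2, -0.05 without day 0 replicate 1, -0.74 without day 0 replicate 2 and -0.19 without day 0 replicate 3.

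Unlike Agtr1a, the other renin-angiotensin member tested, Ace, angiotensin-converting enzyme, did not overlap between ages. It held 5.39, 5.32 and 6.59 FPKM in the older libraries, against 3.82, 3.12 and 3.85 FPKM in the day 0 libraries. All older values were above all day 0 values, with a ratio of means of 1.60. The means were 5.77 ± 0.714 FPKM in older hearts and 3.60 ± 0.415 FPKM in day 0 hearts (SD, n = 3 each; log2 fold change 0.56, SE 0.23, 95% interval 0.03 to 1.09). The limma adjusted p was 0.173, from an unadjusted p of 0.0416, so the difference did not pass over all genes. The Ace level did not overlap between ages with day 0 replicate 3 either included or left out, and its log2 fold change without that library was 0.60. Ace is a known product of endothelial cells. Of 9 tested endothelial markers 7 had a positive and 2 a negative log2 fold change, with a list median of 0.32. The part of these cells in the Ace values was not tested. The test called 2 of the 9 higher, against 3.52% of all tested genes. These were Cdh5 (log2 fold change 0.81), a cadherin of endothelial junctions, and Cldn5 (1.01), a tight junction protein gene. Without older replicate 2 neither of them passed (limma adjusted p of 0.0574 for Cdh5 and 0.137 for Cldn5), nor did they without older replicate 3, and without day 0 replicate 3 Cdh5 passed and Cldn5 did not.

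Absence of overlap is common in these data, occurring in 32.5% of the 13117 tested genes, with 12.2% higher and 20.3% lower in older hearts. Among the 6 tested members it occurred in 3, Ednra and Ece1 being lower and Ace higher in older hearts.

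Agtr1a, the type 1 angiotensin receptor, overlapped between ages. It held 1.65, 3.36 and 1.49 FPKM in the older libraries, against 0.784, 2.89 and 3.26 FPKM in the day 0 libraries. Older values lay within the range of the day 0 values except for older replicate 2, which was the highest of all 6. The means were 2.17 ± 1.04 FPKM in older hearts and 2.31 ± 1.34 FPKM in day 0 hearts (SD, n = 3 each; log2 fold change -0.01, 95% interval -1.08 to 1.05, limma adjusted p = 0.990). The interval allows a change of 2-fold in either direction. Without day 0 replicate 3 the log2 fold change was 0.22, and it ran from -0.41 to 0.22 over all leave-outs. Agtr1a has a close paralog, Agtr1b, so reads shared by both could be split or lost in counting. Agtr1b has no row here.

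Agtr2, the type 2 angiotensin receptor, had reads in day 0 hearts alone, most of them in a single library. It was listed at 0 FPKM in all 3 older libraries, where 3 reads would have given 0.0633 to 0.0678 FPKM, against 0.232, 0 and 0.854 FPKM in the day 0 libraries. The day 0 values stand for 10, 0 and 41 reads. Day 0 replicate 3, which holds the lung and skeletal muscle transcripts, thus gave 41 of the 51 reads, and day 0 replicate 2 was at 0 like the older libraries. With the older hearts set at 3 reads over the group, the pooled day 0 reads stood 18.0-fold higher. Without day 0 replicate 3 they stood 5.57-fold higher, on the 10 reads of day 0 replicate 1 alone. These folds leave out the counting error of the day 0 reads and the spread between libraries. With a mean under 1 FPKM Agtr2 was not tested, and with no filter on level its limma adjusted p was 0.435. The part of lung or skeletal muscle RNA in these reads was not tested.

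On the log2 scale with 0.1 FPKM added to both genes, the ratio of Agtr2 to Agtr1a averaged -4.41 ± 0.61 in older hearts and -2.71 ± 1.91 in day 0 hearts (SD, n = 3 each). The older libraries stood at -4.13, -5.11 and -3.99, against -1.41, -4.90 and -1.82 in the day 0 libraries, so that day 0 replicate 2 lay among the older ones. The difference of -1.70 had p = 0.3 in a two-sided exact permutation test. It was -1.05 without day 0 replicate 1, -2.80 without day 0 replicate 2, -1.26 without day 0 replicate 3 and -0.38 with 1 FPKM added.

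Agt, angiotensinogen, a plasma protein made chiefly in liver, was at the edge of detection at both ages. It held 0.0326, 0.0321 and 1.14 FPKM in the older libraries, against 0.814, 0.115 and 0 FPKM in the day 0 libraries. The reads behind these values were 1, 1 and 33 in older hearts and 23, 3 and 0 in day 0 hearts. A single library of each age, older replicate 3 and day 0 replicate 1, held nearly all of them. Agt was not tested because its mean was 0.355 FPKM, and with no filter its limma adjusted p was 0.943. Of 6 liver markers 3 had a row, and they did not move alike. Alb, the albumin gene, was listed at 0 in 5 libraries and at 0.824 FPKM in day 0 replicate 2. Apoa1, an apolipoprotein gene, had 13 reads in older replicate 3 and 19 reads in day 0 replicate 1, the libraries with most of the Agt reads, and 0 in the others. Ttr, the gene of the thyroxine carrier transthyretin, held 9.71, 11.4 and 8.26 FPKM in older hearts, against 3.32, 2.22 and 3.41 FPKM in day 0 hearts, and was called higher (log2 fold change 1.44, limma adjusted p = 0.0132). The part of liver RNA in the Agt reads was not tested.

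Ranked by level, which FPKM allows because it is scaled by gene length, the members fell into a similar order at both ages. In older hearts Ece1 came first, then Ednra and then Ednrb, and each library of the higher gene lay above each library of the lower one. Ednrb and Ace overlapped, Ace lay above Agtr1a in every comparison of libraries, and Agtr1a, Edn1 and Agt each overlapped with their neighbour. In day 0 hearts Ece1 and Ednra overlapped, Ednra lay above Ednrb and Ednrb above Ace without overlap, and Ace, Agtr1a and Edn1 overlapped with their neighbours. Against all 16898 genes, Ednra stood above 78.0% of genes in older hearts and 88.8% in day 0 hearts. Ace stood above 51.1% in older hearts and 40.0% in day 0 hearts, whereas Agt stood above 15.5% and 12.8%.

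The wider renin-angiotensin list held 16 genes, of which 11 had a row and 8 were tested. Of these 1 rose and 0 fell, and the list median of -0.07 lay beside -0.11 for all tested genes. A count of 1 does not set the list apart from the 9.26% of all tested genes that were called. Mtus1, which encodes a protein that binds the type 2 angiotensin receptor, rose to 222 ± 3.47 FPKM in older hearts, against 162 ± 5.37 FPKM in day 0 hearts (SD, n = 3 each; log2 fold change 0.45, limma adjusted p = 0.0194). Its older libraries held 222, 218 and 225 FPKM and its day 0 libraries 167, 163 and 156 FPKM, and the call held in 1 of 6 fits with a library left out, with limma adjusted p up to 0.0711. The mineralocorticoid receptor gene Nr3c2 averaged 10.5 ± 0.496 FPKM in older hearts and 8.82 ± 1.49 FPKM in day 0 hearts (SD, n = 3 each; limma adjusted p = 0.455). Mas1, a receptor for a shorter angiotensin fragment, was listed at 0, 0.342 and 0.467 FPKM in older hearts and at 0 in all day 0 libraries, which is 25 reads in all.

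Peptidases that cut angiotensins, kinins or endothelins gave no call in 12 tested genes of 16, where 9.26% of all tested genes were called. Limma-voom on the recovered reads called 2 of these 12, Prcp and Anpep, both higher in older hearts. It called 14.0% of all tested genes, 5.57% as higher. Prcp alone was called after centring on the median gene and after quantile normalization. Prcp, a carboxypeptidase that inactivates angiotensin II, held 10.8, 11.6 and 7.16 FPKM in older hearts, against 5.59, 2.57 and 3.56 FPKM in day 0 hearts (log2 fold change 1.16, limma adjusted p = 0.0544). The neprilysin gene Mme, whose product degrades several vasoactive peptides, held 0.699, 0.710 and 0.582 FPKM in older hearts, against 3.18, 1.87 and 1.22 FPKM in day 0 hearts. Its ages did not overlap, and its log2 fold change of -0.84 was not called (limma adjusted p = 0.245). Ece2, another endothelin-converting enzyme, was low at 0.872, 0.595 and 0.957 FPKM in older hearts, against 0.273, 0.237 and 0.114 FPKM in day 0 hearts, and was not tested. Cma1, a chymase gene of mast cells, was named after its values were seen. It held 0.0642, 1.90 and 2.24 FPKM in older hearts, from 1, 30 and 33 reads, and was listed at 0 in all day 0 libraries. Set against 3 reads over the day 0 group, its pooled reads stood 20.2-fold higher in older hearts, and 14.4-fold without older replicate 3. These folds leave out the counting error of the older reads and the spread between libraries. With no filter the limma adjusted p of Cma1 was 0.194. Of 6 mast cell markers, Cma1 among them, 4 had a row, and they did not move alike. Cpa3, another mast cell protease gene, was at 0, 1.32 and 0.872 FPKM in older hearts and 0, 0 and 1.30 FPKM in day 0 hearts. Tpsb2, a tryptase gene, was at 0.879, 0 and 0.586 FPKM in older hearts and 0, 3.21 and 0 FPKM in day 0 hearts. Kit, the receptor that mast cells share with other cells, was the marker tested and was not called (log2 fold change -0.25, limma adjusted p = 0.545). The part of mast cells in the Cma1 values was not tested.

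**Figure D4:**
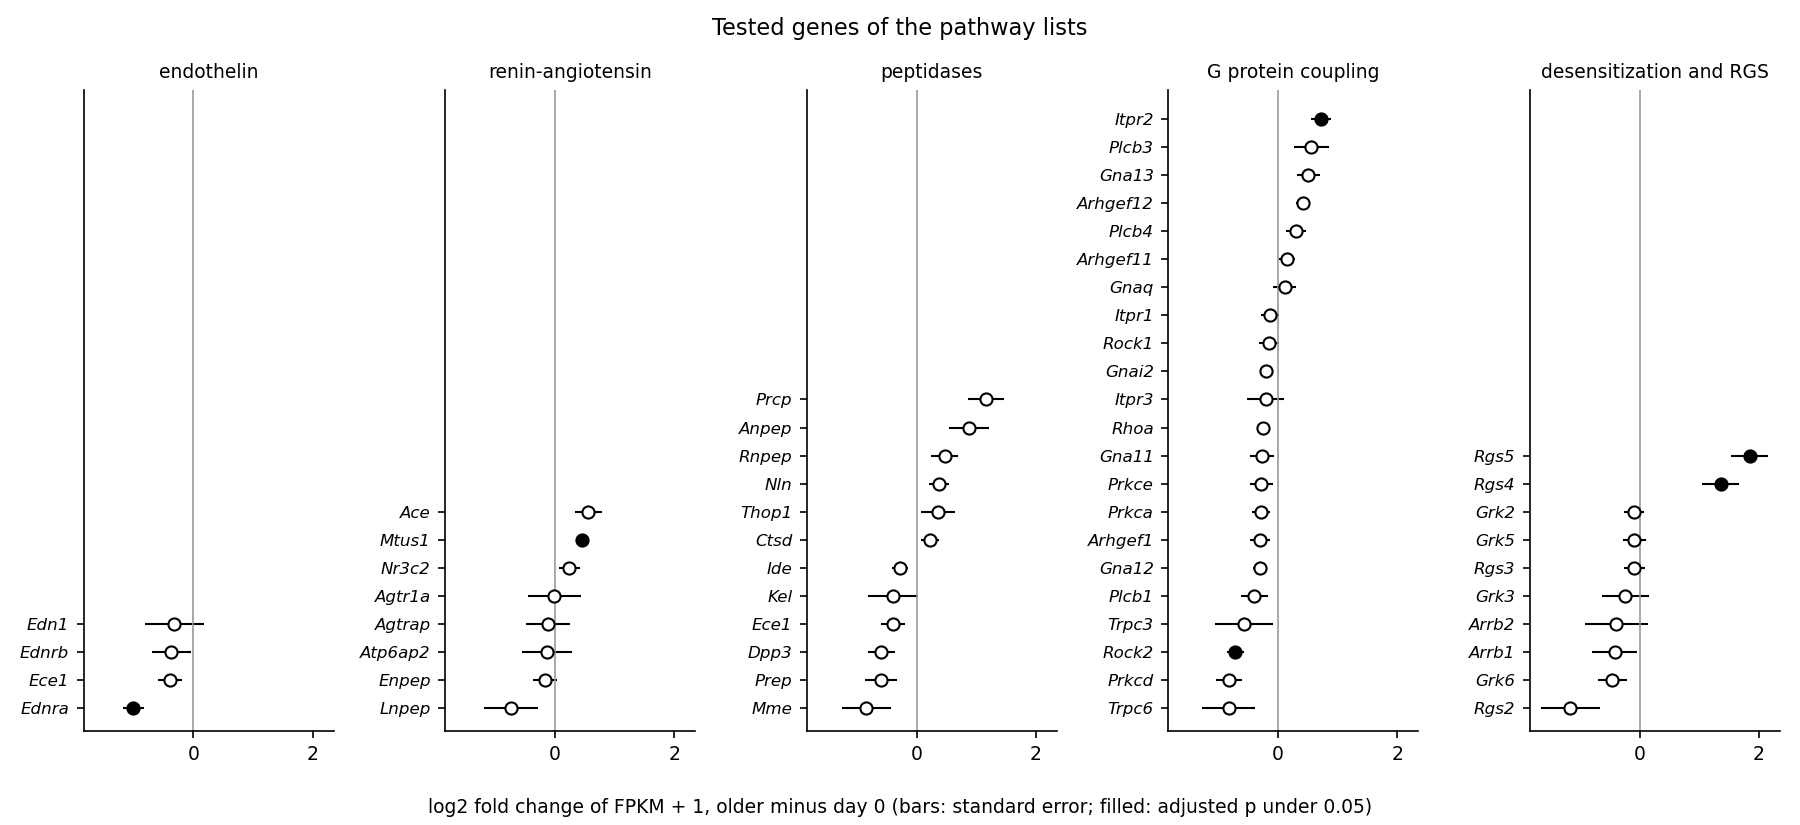
Log2 fold change on the log2(FPKM + 1) scale, older minus day 0 (horizontal axis), of the tested genes in 5 pathway lists (panels), with 1 row per gene. Bars are standard errors and filled points have a limma adjusted p under 0.05. Ednra is the filled point of the endothelin panel, Mtus1 of the renin-angiotensin panel, and Rgs5 at 1.85 has the highest value shown.

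Receptor A and the type 1 angiotensin receptor signal through the G proteins Gq, G12 and G13, and 22 of 24 genes listed for that coupling were tested. Of these 1 rose and 1 fell, with a list median of -0.23 against -0.11 for all tested genes. That count lies near the share of 9.26% called over all tested genes. Itpr2, an inositol trisphosphate receptor that releases stored calcium, rose to 13.9 ± 0.921 FPKM in older hearts, against 8.06 ± 0.770 FPKM in day 0 hearts (SD, n = 3 each; log2 fold change 0.72, limma adjusted p = 0.0383). Rock2, a kinase activated by the small G protein RhoA, fell to 89.1 ± 14.4 FPKM in older hearts, against 147 ± 17.0 FPKM in day 0 hearts (SD, n = 3 each; log2 fold change -0.72, limma adjusted p = 0.0246). Gnaq, the Gq subunit gene, was not called (log2 fold change 0.11). The call of Itpr2 was lost with any 1 library left out (limma adjusted p up to 0.140) and that of Rock2 with 5 of the 6 (up to 0.0963), and Rock2 was also not called after centring on the median gene or quantile normalization.

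Genes that shut these receptors off included 10 regulators of G protein signalling, arrestins and receptor kinases. Of these 2 rose and 0 fell, where 3.52% of all tested genes were called higher and 5.73% lower. Whether that count differs from those shares was not tested. The list median was -0.16 against -0.11 for all tested genes. Rgs4, which speeds the turn-off of Gq, held 7.11, 7.18 and 9.17 FPKM in older hearts, against 3.61, 1.35 and 2.67 FPKM in day 0 hearts (log2 fold change 1.36, limma adjusted p = 0.0371, lost with any 1 library left out). Rgs5, also a pericyte marker, held 125, 106 and 109 FPKM in older hearts, against 44.4, 36.4 and 17.5 FPKM in day 0 hearts (log2 fold change 1.85, limma adjusted p = 0.0132). Its call was lost with 4 of the 6 libraries left out in turn (limma adjusted p up to 0.0725). None of the other 8 genes was called. Rgs2, which acts on Gq, held 14.4, 2.93 and 9.58 FPKM in older hearts, against 21.1, 12.9 and 22.5 FPKM in day 0 hearts (limma adjusted p = 0.184).

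Over the 6 libraries, the genes whose levels ran closest to those of Ednra were Slc16a1 and Wdr1, out of 8999 other genes averaging 5 FPKM or more. Closeness was the root mean square difference between gene-centred log2(FPKM + 1) values, 0.095 for Slc16a1 and 0.106 for Wdr1. Slc16a1, a carrier of lactate and other monocarboxylates, held 41.8, 48.2 and 42.8 FPKM in older hearts, against 108, 89.7 and 74.9 FPKM in day 0 hearts. Wdr1, which helps to take actin filaments apart, held 47.6, 61.4 and 55.8 FPKM in older hearts, against 112, 129 and 100.2 FPKM in day 0 hearts.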

How the data were processed

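The deposited table holds 1 column of FPKM per input library, as the authors deposited it, with the unit read from the values. Per the labels' protocols, libraries were made by the SMART method after depletion of ribosomal RNA. HISAT2, HOMER 4.10 and the build rn5 are named in the submitters' processing notes without a role or order. For the counter, annotation and strand setting, the sources used here give nothing. The table also gives the authors' log2 fold change, p-value and adjusted p-value, deposited without a named test. The 6 pull-down samples were not analysed here. Columns headed 10D were used as the day 7 inputs, the remaining age of the labels.

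Each FPKM value equalled a whole read number times a step set by gene and library, for 100% of 16898 genes at a tolerance of 1e-06, so reads and library totals were recovered. A factor shared by all libraries of a gene cannot be seen. Reads without molecular identifiers give counting error only. FPKM values were tested as log2(FPKM + 1) with limma 3.58.1 (lmFit, eBayes with trend) in R 4.3.3. In simulated reads for older against day 0 hearts with 13086 genes fitted, 33 of 99 genes changed 2-fold and 98 of 100 changed 4-fold were called. Of 12887 unchanged genes 7 were called. The simulation set the same dispersion between libraries for all genes, so these shares need not hold for genes that varied more, such as Edn1 and Agtr1a.

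The members and lists were chosen with earlier results of these data known. Named genes are the members, called genes of the pathway lists, defining pathway genes and the 2 genes nearest in profile to a called member, with marker genes as noted. Some genes of the pathway lists are not reported here and were left out of the list counts. Nothing says that replicates were separate animals, so p-values rest on a spread between libraries that may be technical. Alternatives were another pseudocount, 2 other filters, 2 scalings, each library left out, a replicate block and limma-voom on recovered reads.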

Additional observations from a re-analysis of the deposited data

How the results depend on the processing

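Ednra was lower and called under the other pseudocount, both other filters, both scalings, the replicate block and limma-voom on recovered reads, and its log2 fold change ran from -1.18 to -0.92 with 1 library left out, when 5 of 6 such calls were lost with fewer samples. The direction of Agtr1a turned to 0.04 at a pseudocount of 0.1, 0.11 after centring on the median gene, 0.11 after quantile normalization and 0.05 in voom, and ran from -0.41 to 0.22 with 1 library left out. Over all genes, 462 were called higher and 752 lower, against 617 and 464 after centring, 620 and 479 after quantile normalization and 730 and 1107 in voom. With 1 library left out 145 to 484 were higher and 218 to 646 lower. Under the replicate block 217 were higher and 284 lower. Same-numbered libraries did not deviate together (correlations of deviations of -0.05 to 0), so the numbers are not taken as pairs, and the block removes degrees of freedom. Under it the renin-angiotensin list and the coupling list each had 0 calls and the desensitization list 1. Calls in the peptidase list were 1 after centring, 1 after quantile normalization and 2 in voom. The coupling list had 1 call with no filter and 5 in voom, and the desensitization list 1 with no filter. With 1 library left out, the endothelin, renin-angiotensin, coupling and desensitization lists each had 0 to 1 calls. Neither receptor ratio changed direction under its alternatives. With 1 library left out the Ednra to Ednrb difference ran from -0.94 to -0.40 and the Agtr2 to Agtr1a difference from -2.80 to -1.05, and the difference for Agtr2 was -0.38 at a pseudocount of 1. The cause of these shifts was not tested. Agt, Agtr2 and Edn1 rest on few reads, each with at most 63 in a library.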
